A study of Mus musculus with 209 samples.

Results

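Peritoneal macrophages were profiled early in a time course of tumor necrosis factor (TNFa), at 2 h and at 4 h after the cytokine was given. The libraries were chosen by their sample titles: 2 of TNFa at 2 h, 2 of TNFa at 4 h and 2 of PBS at 24 h, which makes 6 of the 209 libraries of the series. C57BL/6J mice aged 5 to 8 weeks had received 5 µg of TNFa in 120 µL of PBS, or 120 µL of PBS alone, into a vein, and 1000 macrophages of the peritoneal cavity were collected per library after 2 rounds of sorting. The only PBS group of the time course was taken at 24 h, so treatment and time since injection cannot be told apart in the comparisons with PBS. Whether libraries of a group stem from different animals is not in the labels, so p-values measure only the spread between these libraries, which may be technical.

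All 3 comparisons share libraries: both TNFa groups were set against the same PBS libraries, and the comparison of 4 h with 2 h uses both TNFa groups. An independent screen of the same series holds 3 peritoneal macrophage libraries taken 2 h after TNFa and 5 taken 2 h after PBS, and it was used to choose genes without reference to the time-course libraries. In bulk RNA, fewer cells of a type and less RNA per cell cannot be told apart.

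TNFa binds the receptor TNFR1, whose adaptors activate the IkB kinases. These mark the IkB proteins for degradation, and NF-kB then enters the nucleus and switches on genes for cytokines, chemokines, survival factors and adhesion molecules. Among its targets are its own inhibitors, IkBa (Nfkbia) and A20 (Tnfaip3), and many of the early transcripts are short-lived, so NF-kB targets are known to differ in how long they stay high. Resident peritoneal macrophages depend on the transcription factor GATA6 and on retinoic acid, and they are known for clearing dead cells and for producing coagulation factors in the cavity.

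The libraries held 5539361 to 6482453 counts. Levels are given as CPM, the counts scaled to a common library total, on library sizes scaled by edgeR's TMM method, and the 2 values after each group are its 2 libraries. The macrophage marker list summed to 21494 and 22001 CPM after PBS, 27133 and 27873 at 2 h, and 19487 and 18859 at 4 h. Summed markers of B cells, T cells, NK cells, eosinophils, mesothelium and erythroid cells were each at most 3.51 CPM in every library. The summed mast cell markers rose through Hdc alone, from 67.0 and 82.8 CPM to 300.5 and 273 CPM and then 207 and 109.7 CPM, with Tpsb2 at 0. The neutrophil sum was mostly Csf3r, at 234 and 230.5 CPM after PBS and 457 and 514 CPM at 2 h, with S100a9 and Ly6g at 0. Its members S100a8 and Camp were low but higher at 4 h. S100a8 went from 2.14 and 3.51 CPM after PBS to 12.6 and 11.2 CPM at 4 h, and Camp from 0 and 0 CPM to 2.04 and 1.65 CPM. The dendritic cell sum went from 23.4 and 21.9 CPM to 51.4 and 66.1 CPM at 2 h through Zbtb46, with Flt3 at 0, and the monocyte sum, mostly F13a1, was 603 and 601 CPM after PBS, 439 and 437 CPM at 2 h and 502 and 554 CPM at 4 h. The platelet sum was Pf4, at 2005 to 2990 CPM, with Gp5 at 0.

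Of 12376 genes tested, 2240 were higher (18.1%) and 2234 lower (18.1%) at 2 h than after PBS, by edgeR's quasi-likelihood test at a Benjamini-Hochberg adjusted p under 0.05. At 4 h, 2318 were higher (18.7%) and 2092 lower (16.9%). From 2 h to 4 h, 558 genes rose (4.51%) and 619 fell (5%). "Raised", "lowered", "rose" and "fell" below refer to this threshold, and these percentages are the background against which the counts of each gene list are read. The values of all genes were close to centred, with a median log2 fold change of -0.06, -0.02 and 0.02. Scaling by library totals without the TMM factor moved those medians to -0.55, -0.29 and 0.24, and with it the raised share of calls from 50.1% to 20.4% at 2 h, from 52.6% to 32.4% at 4 h and from 47.4% to 73.6% between the times. The 10 most abundant genes took 17.1% of the counts after PBS, 22.4% to 22.6% at 2 h and 18.4% to 18.8% at 4 h. Leaving out 1 library left its group with 1, assumed to vary like the others. The count then fell to 2919 or 2768 at 2 h without the first or the second PBS library and to 2704 or 2801 without the first or the second 2 h library. At 4 h it fell to 2718 or 2671 without a PBS library and to 2451 without the first 4 h library. Between the times it fell to 278, 286, 316 and 363 without the first or second 2 h or the first or second 4 h library. With only the 6 libraries in the fit, in place of the 10 of the whole time course, it was 3222. Calls between the times that were lost without at least 1 library are named below, with the highest adjusted p reached, as a range over the genes where several are named.

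Most feedback inhibitors of NF-kB were raised at both times. Of 18 genes tested, 16 were raised at 2 h, against 18.1% of all genes (36.2% were called in either direction), and 16 at 4 h, against 18.7%, with a median log2 fold change of 3.32 and then 2.38. From 2 h to 4 h, 9 fell, against 5% of all genes, and 0 rose, against 4.51% (9.51% in either direction), with a median of -0.93. Nfkbia (IkBa, chr12:55489410-55492647, minus strand, mm10) measured 165 and 171 CPM after PBS, 2254 and 2335 CPM at 2 h and 1672 and 1499 CPM at 4 h. Its 4 h libraries lay between the other groups without overlap, at a log2 fold change of 3.77 (SE 0.17) at 2 h (adjusted p 1.6e-08), 3.24 (SE 0.17) at 4 h (adjusted p 5.2e-08) and -0.53 (SE 0.16) between the times (adjusted p 0.048). Its relatives Nfkbib and Nfkbie, which hold NF-kB in the cytoplasm in the same way, changed between the times by -0.89 (SE 0.17) and -0.91 (SE 0.19) on the log2 scale. Tnfaip3, the A20 ubiquitin editor, measured 18.3 and 12.0 CPM after PBS, 1631 and 1655 CPM at 2 h and 923 and 776 CPM at 4 h. Its log2 difference of -0.95 (SE 0.32) between the times did not pass the test (adjusted p 0.0816). Tnip1, the A20-binding protein, and Bcl3, a nuclear IkB protein, fell (log2 difference -1.05 and -1.83). Zfp36, which encodes the mRNA-destabilising protein tristetraprolin, measured 41.7 and 37.7 CPM, 286 and 318 CPM and 89.7 and 103 CPM in the same order and fell (log2 difference -1.64). Traf1, a TNF receptor adaptor, and N4bp1, an inhibitor of NF-kB signalling, measured 105 and 100.1 CPM and 73.6 and 58.9 CPM at 4 h against 59.4 and 89.0 CPM and 75.2 and 71.2 CPM at 2 h, with no call between the times. Cyld, a deubiquitinase, was not raised at 2 h and was lowered at 4 h, at 48.0 and 51.5 CPM after PBS and 33.4 and 28.7 CPM at 4 h. Without at least 1 library, the calls between the times were lost for Nfkbia, Nfkbib, Nfkbie, Tnip1, Bcl3, Zfp36 and Cyld (highest adjusted p from 0.0758 to 0.276), and the 4 h calls for Zfp36 and Cyld (highest adjusted p from 0.0966 to 0.177). The list then held 1 to 8 falling genes.

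**Figure D1:**
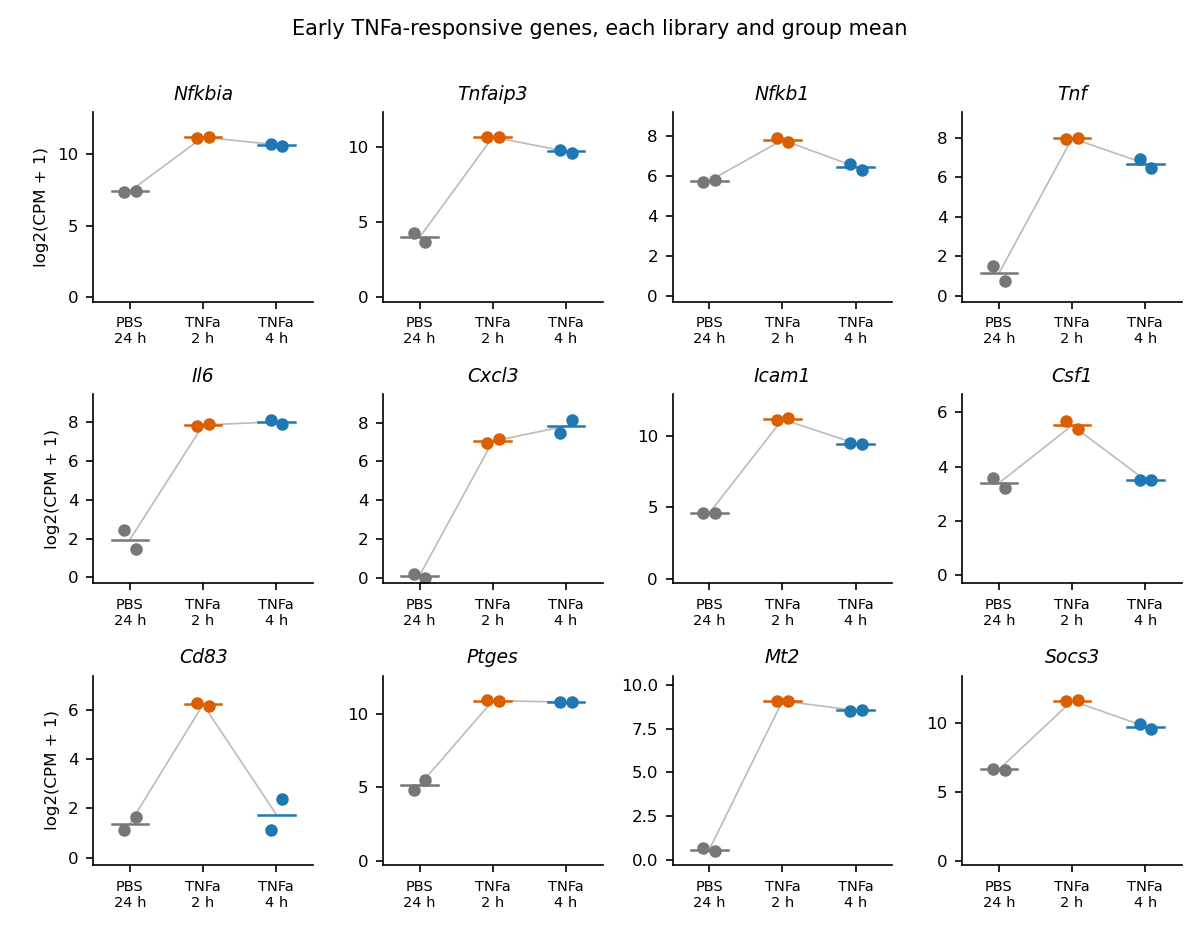
Levels of 12 early TNFa-responsive genes as log2(CPM + 1) in each library (points) of PBS 24 h, TNFa 2 h and TNFa 4 h, with the mean of each group (bar) and a thin line between the means. Nfkbia, Tnf, Icam1 and Socs3 were highest at 2 h, and Cd83 was back near its PBS level at 4 h. The means of Il6 and Cxcl3 were higher at 4 h than at 2 h, with no call between the times.

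Promoter sequences of 5 genes, each with a motif match, are shown as examples of the courses described here. Nfkbia, Icam1 and Csf1 were raised by TNFa in the screen and fell from 2 h to 4 h, Cxcl3 was raised at both times of the course, and AA467197 rose from 2 h to 4 h. Each is the 250 bases before the start of the gene, from RefSeq (GRCm38.p6), read 5′ to 3′ on the gene's strand, with matches in capitals. The motifs searched on both strands were GGANTTTCC for NF-kB, GAAANNGAA for interferon response factors and TGANTCA for AP-1, and none of the matches shown overlap.
Nfkbia (chr12:55492648-55492897, minus strand): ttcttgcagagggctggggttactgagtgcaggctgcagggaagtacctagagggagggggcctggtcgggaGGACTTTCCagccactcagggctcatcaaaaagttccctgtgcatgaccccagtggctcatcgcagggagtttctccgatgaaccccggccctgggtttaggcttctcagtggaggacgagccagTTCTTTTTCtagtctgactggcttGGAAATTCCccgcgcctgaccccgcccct
Icam1 (chr9:21015690-21015939, plus strand): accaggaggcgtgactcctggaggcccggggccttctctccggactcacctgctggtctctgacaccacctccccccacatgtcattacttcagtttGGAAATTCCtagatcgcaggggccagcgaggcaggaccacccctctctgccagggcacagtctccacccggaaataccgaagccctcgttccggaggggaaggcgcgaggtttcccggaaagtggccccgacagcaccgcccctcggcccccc
Csf1 (chr3:107760470-107760719, minus strand): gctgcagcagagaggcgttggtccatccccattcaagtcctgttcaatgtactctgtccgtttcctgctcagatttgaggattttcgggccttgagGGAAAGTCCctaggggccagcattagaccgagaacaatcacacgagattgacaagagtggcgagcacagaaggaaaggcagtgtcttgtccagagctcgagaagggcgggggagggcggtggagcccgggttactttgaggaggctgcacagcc
Cxcl3 (chr5:90785851-90786100, plus strand): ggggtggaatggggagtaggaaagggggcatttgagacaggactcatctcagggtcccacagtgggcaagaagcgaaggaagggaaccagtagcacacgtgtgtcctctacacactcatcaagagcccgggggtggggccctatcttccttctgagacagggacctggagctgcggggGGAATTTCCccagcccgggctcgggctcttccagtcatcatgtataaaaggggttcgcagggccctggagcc
AA467197 (chr2:122637637-122637886, plus strand): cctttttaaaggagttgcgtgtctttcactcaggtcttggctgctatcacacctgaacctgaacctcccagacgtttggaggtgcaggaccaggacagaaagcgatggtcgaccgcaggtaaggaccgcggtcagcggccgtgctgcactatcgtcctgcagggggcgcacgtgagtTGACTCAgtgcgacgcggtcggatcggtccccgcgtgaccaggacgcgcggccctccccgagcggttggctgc
The Nfkbia promoter holds NF-kB matches that begin 178 and 29 bases before the start and an interferon response match 53 bases before it. The NF-kB matches of Icam1, Csf1 and Cxcl3 begin 153, 154 and 72 bases before the start, and the AP-1 match of AA467197 begins 73 bases before it. A match describes the letters only, and these examples are not typical of their groups. Among genes raised in the screen that then fell, 15 of 331 promoters (4.53%) held the NF-kB motif.

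Most genes for NF-kB subunits and kinases were raised at 2 h. Of 15 subunits and kinases tested, 10 were raised and 2 lowered at 2 h, 8 raised and 0 lowered at 4 h, and 4 fell while 1 rose between the times. Rel (c-Rel) measured 56.0 and 46.2 CPM after PBS, 169 and 174 CPM at 2 h and 62.1 and 69.9 CPM at 4 h. Its 4 h value was 0.37 (SE 0.21) on the log2 scale against PBS (adjusted p 0.188), after a difference of 1.74 (SE 0.21) at 2 h, and it fell (log2 difference -1.38) between the times (adjusted p 0.00176). Nfkb1, the p105 precursor, measured 51.3 and 54.3 CPM, then 238 and 208 CPM and 96.4 and 78.8 CPM, and fell (log2 difference -1.35). Nfkb2, the p100 precursor, measured 39.3 and 44.1 CPM, then 694 and 651 CPM and 382 and 341 CPM. Nfkb2 and Rela remained raised at 4 h, (log2 fold change 3.12 (SE 0.23) and 1.08 (SE 0.19)), although both fell from 2 h. Relb, the partner of p100, measured 444 and 450.0 CPM at 2 h and 243 and 245 CPM at 4 h, with no call between the times (adjusted p 0.0874). Ikbke, an inducible IkB kinase relative, measured 101 and 103 CPM after PBS, 695 and 758 CPM at 2 h and 688 and 663 CPM at 4 h, again with no call between the times (adjusted p 0.716). Tab1, which activates the kinase TAK1, went the other way: it was lowered at 2 h, from 34.0 and 29.2 CPM to 10.5 and 11.7 CPM, and rose to 18.7 and 25.4 CPM. Ikbkg, the NEMO scaffold, was lowered at 2 h (log2 fold change -0.81). Calls between the times lost without at least 1 library were those of Nfkb2, Rela and Tab1 (highest adjusted p from 0.125 to 0.262), and the list then held 2 to 4 falling genes. The 2 h call of Ikbkg (highest adjusted p 0.117) and the 4 h call of Nfkb1 (highest adjusted p 0.132) were lost as well.

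The receptor gene Tnfrsf1a (TNFR1) was raised at 2 h and not called at 4 h. It measured 221 and 203 CPM after PBS, 444 and 425 CPM at 2 h and 204 and 221 CPM at 4 h. The PBS and 4 h libraries overlapped, and the log2 fold change was 1.04 (SE 0.21) at 2 h (adjusted p 0.00199) and 0.00 (SE 0.21) at 4 h. Tnfrsf1b (TNFR2) measured 210.1 and 209 CPM, 249.9 and 249.9 CPM and 226 and 234 CPM, with no call in any of the comparisons. Of 12 receptors and adaptors, 5 were raised at 2 h and 3 at 4 h, against 18.1% and 18.7% of all genes. None was lowered at either time, against 18.1% and 16.9%. The list's median of 0.30 at 2 h turned to -0.19 under scaling by library totals. Traf5, an adaptor, measured 8.00 and 7.84 CPM after PBS, 53.4 and 42.1 CPM at 2 h and 54.0 and 43.4 CPM at 4 h. Adam17, the protease that sheds TNF and its receptors, was raised (log2 fold change 1.40 (SE 0.18) and 1.09 (SE 0.18)). Tnf itself measured 1.86 and 0.676 CPM after PBS, 248 and 253 CPM at 2 h and 119 and 88.4 CPM at 4 h. Its groups did not overlap, and the log2 fold change was 7.62 (SE 0.43) at 2 h, 6.35 (SE 0.43) at 4 h and -1.27 (SE 0.29) between the times (adjusted p 0.015). Leaving out 1 library ended the calls between the times of Tnfrsf1a and Tnf (highest adjusted p from 0.081 to 0.152).

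Most survival genes downstream of NF-kB were raised at both times. Of 15 tested, 12 were raised and 1 lowered at 2 h, and 10 raised and 1 lowered at 4 h, with medians of 2.05 and 1.18. From 2 h to 4 h 4 fell and 0 rose. Birc3 (cIAP2), a ubiquitin ligase of the receptor complex, measured 48.7 and 49.7 CPM after PBS, 623 and 609 CPM at 2 h and 365 and 362 CPM at 4 h, with no call between the times. Its paralog Birc2 (cIAP1) and Cflar (cFLIP), which blocks caspase-8, fell (log2 difference -0.72 and -0.96). The A1 genes Bcl2a1a and Bcl2a1d, near-identical copies of an inhibitor of cell death, measured 44.4 and 48.7 CPM and 81.9 and 81.5 CPM at 2 h from under 1 CPM after PBS, and 55.1 and 46.5 CPM and 65.7 and 45.4 CPM at 4 h. How reads were divided among these copies was not given in the sources used here, so each copy is uncertain. Bcl2l11 encodes BIM, which promotes cell death. It measured 29.6 and 26.4 CPM after PBS, 71.4 and 67.0 CPM at 2 h and 20.4 and 24.6 CPM at 4 h. It was raised at 2 h and not called at 4 h, with a difference of -1.62 (SE 0.28) between the times (adjusted p 0.00379). Gadd45b, which restrains stress kinase signalling, measured 57.2 and 60.2 CPM at 2 h and 11.7 and 10.4 CPM at 4 h. Bcl2 was lowered, at 9.72 and 5.68 CPM after PBS and 2.81 and 1.10 CPM at 2 h, and Xiap was not called in any comparison. Without at least 1 library, the calls between the times of Birc2, Cflar, Bcl2l11 and Gadd45b (highest adjusted p from 0.0505 to 0.318) and the 2 h call of Bcl2 (highest adjusted p 0.135) were lost, and the list held 0 to 3 falling genes.

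Chemokine genes were raised at both times, and none of those listed here passed the test between the times. Of 3 neutrophil-attracting chemokines tested, 3 were raised at 2 h and 3 at 4 h, and of 8 CC chemokines 7 and 7. Cxcl1 measured 6.86 and 2.43 CPM after PBS, 302 and 358 CPM at 2 h and 136 and 138 CPM at 4 h. Cxcl3 (chr5, its promoter is shown above) measured 0.143 and 0 CPM, 121 and 142 CPM and 178 and 285 CPM. With 1 count in the PBS libraries, it was 1886-fold (95% counting interval 338 to 74550.0) higher at 2 h and 3344-fold (95% counting interval 599.6 to 132100.0) higher at 4 h, intervals that cover counting error only. Cxcl1 and Cxcl3 are close relatives that recruit neutrophils through CXCR2, and their differences of -1.27 and 0.81 between the times had adjusted p of 0.0756 and 0.521. Cxcl13, which attracts B cells and is made by resident peritoneal macrophages, measured 116 and 154 CPM after PBS, 1777 and 1923 CPM at 2 h and 2209 and 3096 CPM at 4 h. Ccl9 measured 348 and 369 CPM, 2079 and 2332 CPM and 2259 and 2433 CPM, and Ccl5, which attracts T cells and monocytes, 0.143 and 0 CPM, 29.4 and 27.5 CPM and 40.9 and 24.7 CPM. Ccl3 rose by 3.33 (SE 0.66) and 4.11 (SE 0.66) against PBS, and in the screen its value was 1.10 and not called.

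Most cytokine genes were raised at both times. Of 14 tested, 12 were raised and 1 lowered at 2 h, and 11 raised and 1 lowered at 4 h, with medians of 4.64 and 3.82; 4 fell between the times and 0 rose. Il6 measured 4.43 and 1.76 CPM after PBS, 224 and 233 CPM at 2 h and 276 and 237 CPM at 4 h, and the TNFa groups did not overlap, with a log2 difference of 0.17 (SE 0.40) (adjusted p 0.835). Il1rn, the IL1 receptor antagonist, measured 2.72 and 3.92 CPM, 89.2 and 64.8 CPM and 85.0 and 50.1 CPM. Il1b measured 0 and 0.135 CPM, 54.6 and 40.3 CPM and 20.02 and 5.94 CPM, so that its 4 h libraries differed severalfold from each other. The difference of -1.87 between the times did not pass the test (adjusted p 0.0626). Csf1, the growth factor of macrophages, measured 10.9 and 8.24 CPM after PBS, 49.5 and 40.3 CPM at 2 h and 10.3 and 10.2 CPM at 4 h. Its PBS and 4 h libraries overlapped, and its difference between the times was -2.13 (SE 0.29) (adjusted p 0.00114). Il27 (the p28 chain of IL27) fell (log2 difference -1.40) and Tnfsf9 (the 4-1BB ligand) did so as well (-1.67), and both remained raised at 4 h. Il15, a growth factor of NK and memory T cells, was lowered, from 17.0 and 14.3 CPM to 4.12 and 4.85 CPM at 2 h and 3.05 and 3.30 CPM at 4 h. Osm (oncostatin M) was raised at both times (log2 fold change 2.50 and 2.83). Leaving out 1 library ended the calls between the times of Il27 and Tnfsf9 (highest adjusted p from 0.0946 to 0.16) and the 2 h call of Osm (highest adjusted p 0.0741), and the list then held 1 to 4 falling genes.

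Jun and Junb, of the AP-1 family of transcription factors, moved in opposite directions between the times. Of 17 immediate-early genes, 12 were raised at 2 h and 12 at 4 h, and 1 rose and 2 fell between the times. Jun measured 17.0 and 10.1 CPM after PBS, 43.3 and 50.9 CPM at 2 h and 184 and 182 CPM at 4 h, a rise of 1.96 (SE 0.43) between the times (adjusted p 0.0128). Junb, which can oppose Jun, measured 221 and 203 CPM, 1276 and 1265 CPM and 696 and 635 CPM and fell (log2 difference -0.93). Ier2 fell (log2 difference -0.67), and the nuclear receptor Nr4a1 measured 92.1 and 75.1 CPM at 2 h and 93.5 and 70.1 CPM at 4 h. In the screen, Jun was at -1.45 and was not called. The MAPK phosphatases switch off stress kinases and ERK. Of 9 tested, 5 were raised and 1 lowered at 2 h, and 6 raised and 1 lowered at 4 h. Dusp16 measured 5.00 and 7.43 CPM after PBS, 263 and 274 CPM at 2 h and 82.1 and 83.5 CPM at 4 h and fell (log2 difference -1.70) (adjusted p 0.0032). Dusp6, which acts on ERK, was the reverse: it measured 179 and 198 CPM after PBS, 11.8 and 10.6 CPM at 2 h and 30.7 and 42.2 CPM at 4 h, lowered (log2 fold change -4.07 (SE 0.25)) at 2 h and rising by 1.70 (SE 0.25) afterwards (adjusted p 0.00144). Dusp1 measured 82.2 and 217 CPM after PBS, a wide gap between libraries, then 1590.3 and 1697 CPM and 589.5 and 613 CPM, and it fell between the times. Without at least 1 library the calls between the times of Jun, Junb, Ier2 and Dusp1 (highest adjusted p from 0.118 to 0.161) were lost, as was the 2 h call of Jun (highest adjusted p 0.0674).

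Several genes of the IL6 and STAT pathway were raised at 2 h and fell afterwards. Of 18 SOCS and JAK-STAT genes, 10 were raised and 3 lowered at 2 h, 8 raised and 3 lowered at 4 h, and 5 fell between the times while 0 rose. Socs3, the feedback inhibitor of the gp130 receptor, measured 101 and 93.5 CPM after PBS, 2980.3 and 3198 CPM at 2 h and 955 and 748 CPM at 4 h. The groups did not overlap, and Socs3 fell (log2 difference -1.86) (adjusted p 0.00814). Stat3, the main transcription factor of this pathway, measured 218 and 194 CPM, 735 and 758 CPM and 309 and 322 CPM and fell (log2 difference -1.24) (adjusted p 0.00074). Jak2 and Il6st (gp130) fell (log2 difference -1.50 and -0.87). Il6ra, the IL6-binding receptor chain, was lowered at both times, at 109.6 and 104 CPM after PBS, 42.9 and 34.8 CPM at 2 h and 32.1 and 38.6 CPM at 4 h. Cish, a target of STAT5, measured 79.9 and 89.5 CPM at 2 h and 36.1 and 26.9 CPM at 4 h with no call between the times (adjusted p 0.183). The calls between the times lost without at least 1 library were those of Socs3 and Il6st (highest adjusted p from 0.0769 to 0.0906), and the 4 h calls of Stat3 and Jak2 (highest adjusted p from 0.0877 to 0.101) were also lost. The list then held 2 to 5 falling genes.

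**Figure D2:**
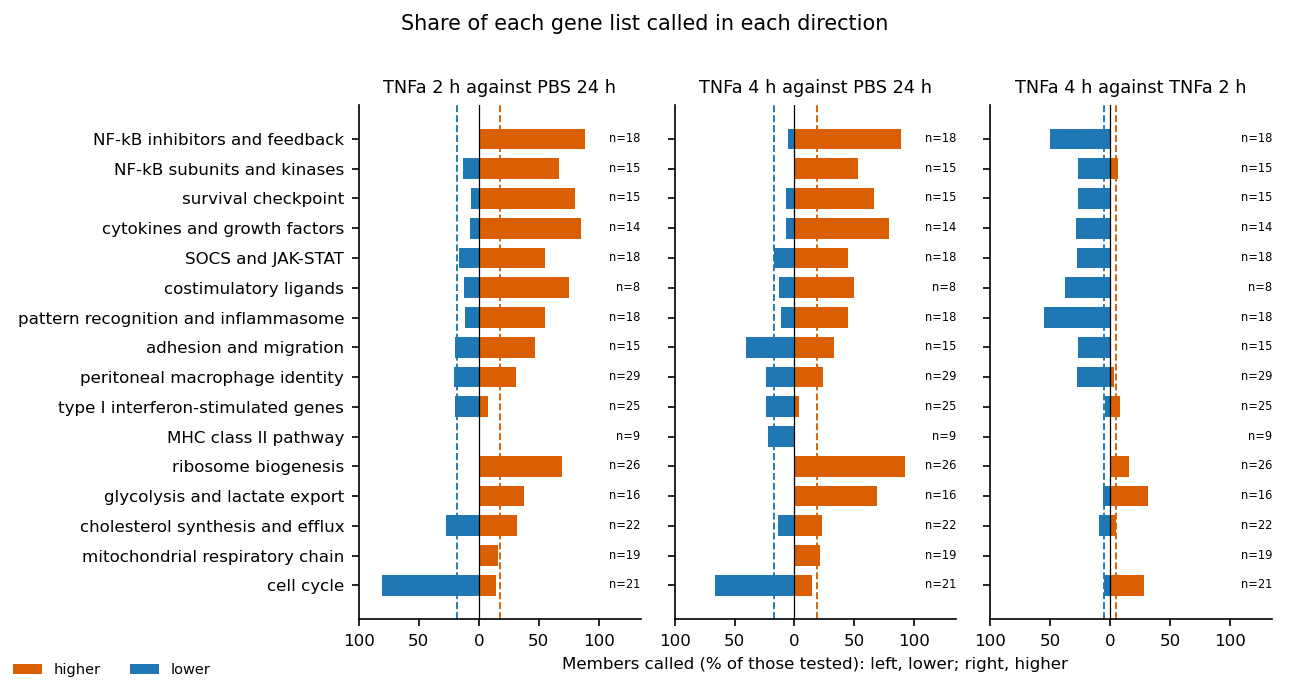
Share of the tested members of 16 gene lists that were called higher (right, orange) or lower (left, blue) at an adjusted p under 0.05, in each of the 3 comparisons; dashed lines mark the share over all 12376 genes. NF-kB feedback, cytokine and pattern recognition lists lie to the right in both comparisons with PBS and to the left from 2 h to 4 h, and the ribosome biogenesis and glycolysis lists lie to the right in all 3.

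Several adhesion and costimulatory genes were raised at 2 h and fell afterwards. Icam1, the ligand of leukocyte integrins (promoter shown above), measured 22.7 and 23.5 CPM after PBS, 2141 and 2333 CPM at 2 h and 711 and 679 CPM at 4 h. It remained raised by 4.91 (SE 0.31) at 4 h and fell (log2 difference -1.69) between the times (adjusted p 0.00231), with the call kept without any 1 of the 6 libraries. Vcam1, another integrin ligand, measured 0 and 0.135 CPM, 24.7 and 36.1 CPM and 8.99 and 12.5 CPM. Of 15 adhesion and migration genes, 7 were raised and 3 lowered at 2 h, against 18.1% of all genes in each direction. At 4 h, 5 were raised and 6 lowered, against 18.7% and 16.9%. Chemokine receptors were among the lowered: Ccr2 measured 26.2 and 21.9 CPM after PBS, 0.937 and 0.441 CPM at 2 h and 0.17 and 0.825 CPM at 4 h. Ccr1 was raised at 2 h (log2 fold change 0.89) and then lowered at 4 h (log2 fold change -0.47). Of 8 costimulatory ligands, 6 were raised at 2 h and 4 at 4 h, against 18.1% and 18.7% of all genes, and 3 fell between the times, against 5%. Cd83, a marker of activated antigen-presenting cells, measured 1.14 and 2.16 CPM after PBS, 76.9 and 69.0 CPM at 2 h and 1.19 and 4.12 CPM at 4 h, a log2 difference of -4.76 between the times (adjusted p 0.00636). Its PBS and 4 h libraries overlapped. The 4 h libraries of Cd80 lay within the range of its PBS libraries, at 23.4 and 19.3 CPM, 67.5 and 53.3 CPM and 21.9 and 19.8 CPM. Cd40, the receptor for T cell help, was at 275 and 299.7 CPM at 2 h and 121 and 108 CPM at 4 h. Icosl and Cd274 (PD-L1) measured 145 and 151 CPM and 101 and 57.6 CPM at 4 h against 6.00 and 4.46 CPM and 12.0 and 5.13 CPM after PBS. The checkpoint gene Vsir (VISTA) was lowered from 792 and 769 CPM to 162 and 152 CPM and 101 and 119.7 CPM. Leaving out 1 library ended the calls between the times of Cd83, Cd80 and Cd40 (highest adjusted p from 0.0567 to 0.107) and the 4 h calls of Ccr1 and Cd40 (highest adjusted p from 0.148 to 0.201).

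Many pattern recognition genes fell between the times. Of 18 tested, 10 were raised and 2 lowered at 2 h, 8 raised and 2 lowered at 4 h, and 10 fell between the times while 0 rose. Under scaling by library totals, 8 fell and 1 rose. Cd14, the co-receptor for lipopolysaccharide, measured 398 and 337 CPM after PBS, 6897 and 7008 CPM at 2 h and 4419 and 3277 CPM at 4 h. Tlr2, the receptor for bacterial lipoproteins, measured 76.2 and 67.3 CPM, 1268 and 1276 CPM and 599.7 and 521 CPM, and Nlrp3, the inflammasome sensor, 21.1 and 22.2 CPM, 364 and 341 CPM and 196 and 161 CPM. All 3 remained raised at 4 h, (log2 fold change 3.39, 2.97 and 3.04), and fell between the times (log2 difference -0.85, -1.18 and -0.98). Tlr8, an RNA sensor, differed: it measured 54.0 and 62.3 CPM after PBS, 42.7 and 37.0 CPM at 2 h and 8.65 and 6.60 CPM at 4 h. It was not called at 2 h (adjusted p 0.17) and was lowered at 4 h (log2 fold change -2.93 (SE 0.34)). Nod2, Myd88 and Casp4 fell (log2 difference -1.10, -0.57 and -1.45). Without at least 1 library the calls between the times of Cd14, Tlr2, Nlrp3, Nod2, Myd88 and Casp4 (highest adjusted p from 0.0652 to 0.247) were lost, and the list held 2 to 8 falling genes.

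Few interferon-stimulated genes were raised. Of 25 type I interferon-stimulated genes, 2 were raised and 5 lowered at 2 h and 1 raised and 6 lowered at 4 h, against 18.1% and 18.7% of all genes raised and 18.1% and 16.9% lowered. Mx1 measured 23.2 and 19.9 CPM after PBS, 0.937 and 1.32 CPM at 2 h and 1.19 and 2.97 CPM at 4 h, and Cmpk2 21.1 and 22.4 CPM, 1.31 and 2.86 CPM and 12.0 and 4.78 CPM. Cmpk2 rose by 2.03 between the times, as did Ifit1, which was at 0.75 and 0.22 CPM at 2 h and 7.80 and 2.47 CPM at 4 h. Of the interferon regulatory factors, Irf1 was raised, at 113 and 92.8 CPM after PBS, 289 and 259 CPM at 2 h and 275 and 199.9 CPM at 4 h. Irf4 and Irf8, factors of macrophage and dendritic cell differentiation, were lowered from 34.6 and 28.4 CPM and 92.2 and 87.7 CPM to 1.50 and 1.76 CPM and 8.25 and 12.8 CPM at 2 h. The GTPase Gbp5 was raised to 84.0 and 95.6 CPM at 2 h from 4.57 and 4.46 CPM, whereas Gbp2b was lowered from 328 and 277 CPM to 52.7 and 61.7 CPM at 2 h and 5.09 and 13.5 CPM at 4 h. Gbp2b belongs to a family of near-identical copies and is uncertain. Among antigen presentation genes, 5 of 13 MHC class I pathway genes were raised at 2 h and 5 at 4 h, among them the proteasome subunit Psmb10, by 1.14 and 1.26, and of 9 MHC class II genes 0 were raised at either time and 2 were lowered at 4 h. H2-Ab1 measured 155 and 108 CPM after PBS, 97.1 and 133 CPM at 2 h and 329 and 208 CPM at 4 h, with no call. Under scaling by library totals, 13 of the interferon-stimulated genes and 5 of the MHC class II genes were lowered at 2 h. The calls between the times of Cmpk2, Ifit1, Gbp5 and Gbp2b (highest adjusted p from 0.192 to 0.316) were lost without at least 1 library, as were the 4 h calls of Irf1 and Cmpk2 (highest adjusted p from 0.0623 to 0.193) and the 2 h call of Gbp2b (highest adjusted p 0.0607).

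Several genes for metal-binding proteins and for oxidant and lipid enzymes were raised at both times. Of 7 metallothioneins and zinc transporters, 4 were raised at 2 h and 3 at 4 h, and of 11 antioxidant genes 5 and 4, with none lowered in either list. Of 14 inducible metabolic and lipid mediator enzymes, 6 were raised and 3 lowered at 2 h, and 6 raised and 4 lowered at 4 h. Over all genes, 18.1% were raised and 18.1% lowered at 2 h, and 18.7% raised and 16.9% lowered at 4 h. The metallothionein Mt2, which binds zinc, measured 0.572 and 0.405 CPM after PBS, 542 and 537 CPM at 2 h and 364 and 379 CPM at 4 h. Mt1 measured 82.0 and 93.2 CPM, 3658 and 3676 CPM and 3318 and 2895 CPM, and reads that fit both genes make the split between them uncertain. Sod2, the mitochondrial superoxide dismutase, measured 107 and 110.0 CPM, 2211 and 2181 CPM and 2424 and 2333 CPM (adjusted p against PBS 5.3e-09 and 5.4e-09). Acod1, which makes itaconate, measured 10.3 and 0.811 CPM after PBS, 1039 and 1105 CPM at 2 h and 1927 and 1478 CPM at 4 h. Slc7a2, the arginine carrier, measured 149.6 and 114 CPM, 2405 and 2394 CPM and 3677 and 3656 CPM, and Ptges, the inducible prostaglandin E synthase, 27.4 and 43.8 CPM, 1984 and 1908 CPM and 1783 and 1865 CPM. None of these 6 genes was called between the times. Ptgs2 (COX-2), at 0 in both PBS libraries, measured 27.7 and 23.1 CPM at 2 h and 3.73 and 12.7 CPM at 4 h, at least 123-fold higher at 2 h and at least 39.7-fold higher at 4 h than PBS, taken at a floor of 3 counts over its libraries. Ptgs1 (COX-1), the constitutive enzyme, was lowered from 724 and 697 CPM to 456 and 439 CPM and 357 and 335 CPM. Alox15, a lipoxygenase of resident peritoneal macrophages, measured 9408 and 9856 CPM after PBS, 10646 and 10692 CPM at 2 h and 6391 and 4927 CPM at 4 h and fell (log2 difference -0.91). Txnrd1 and Abca1, the thioredoxin reductase and the cholesterol exporter, fell (log2 difference -0.94 and -1.69). Ch25h, which makes 25-hydroxycholesterol, was at 0 after PBS and measured 26.2 and 14.3 CPM at 2 h and 11.2 and 5.94 CPM at 4 h. The calls between the times of Alox15, Txnrd1 and Abca1 (highest adjusted p from 0.1 to 0.274), the 2 h calls of Ptgs1 and Abca1 (highest adjusted p from 0.0543 to 0.0797) and the 4 h call of Alox15 (highest adjusted p 0.0808) were lost without at least 1 library.

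More genes of ribosome biogenesis and of glycolysis were raised at 4 h than at 2 h. Of 26 ribosome biogenesis genes, 18 were raised at 2 h and 24 at 4 h, with medians of 1.05 and 1.53, and 4 rose and 0 fell between the times. Dkc1, the pseudouridine synthase of ribosomal RNA, measured 51.3 and 52.4 CPM after PBS, 49.9 and 50.7 CPM at 2 h and 161 and 139 CPM at 4 h, a rise of 1.58 (SE 0.21) between the times (adjusted p 0.00099). Bop1, a factor of the large subunit, measured 58.6 and 52.8 CPM, 122 and 104 CPM and 209 and 194 CPM and rose by 0.83. Wdr12 and Utp20 rose by 0.87 and 0.93, whereas Rrs1 was already at 200.05 and 203 CPM at 2 h and at 179 and 153 CPM at 4 h. In the screen, 26 of 26 members were raised at 2 h, against 26.6% of all genes tested there. Of 16 glycolysis and lactate export genes, 6 were raised at 2 h and 11 at 4 h, and 5 rose and 1 fell between the times. Slc16a3 (MCT4), which exports lactate, measured 83.7 and 61.1 CPM after PBS, 61.3 and 61.3 CPM at 2 h and 281 and 227 CPM at 4 h, a rise of 2.05 (SE 0.25) (adjusted p 0.00064). Tpi1 measured 179 and 174 CPM, 159.6 and 177 CPM and 389.5 and 334 CPM, and Pfkl, the liver-type phosphofructokinase, 409 and 416 CPM, 631 and 618 CPM and 1294 and 1177 CPM. Pgk1 and Pgam1 rose by 0.91 and 1.02 between the times. Pfkfb3, which activates phosphofructokinase, had the opposite course, with 42.6 and 40.5 CPM after PBS, 759.9 and 766 CPM at 2 h and 158 and 239.8 CPM at 4 h. Slc2a1 (GLUT1) and Hk2 were raised at both times with no call between them. Scaling by library totals left 10 ribosome biogenesis genes raised at 2 h and 10 rising between the times, and 3 glycolysis genes raised and 5 lowered at 2 h, with the glycolysis median at 2 h turning from 0.25 to -0.25. The calls between the times of Bop1, Wdr12, Utp20, Tpi1, Pfkl, Pgk1 and Pgam1 (highest adjusted p from 0.0548 to 0.279) were lost without at least 1 library, and the lists then held 1 to 2 and 1 to 5 rising genes. AA467197, which encodes a small mitochondrial protein (promoter shown above), was at 0 after PBS and measured 0.75 and 1.54 CPM at 2 h and 16.3 and 27.0 CPM at 4 h. It was at least 104-fold higher than PBS at 4 h and rose by 4.25 between the times (adjusted p 0.00688), a call that was also lost for AA467197 (highest adjusted p 0.0929). The respiratory chain list had 3 of 19 genes raised at 2 h and 4 at 4 h, near the 18.1% and 18.7% of all genes. Its medians of 0.13 and 0.10 turned to -0.36 and -0.17 under scaling by library totals.

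**Figure D3:**
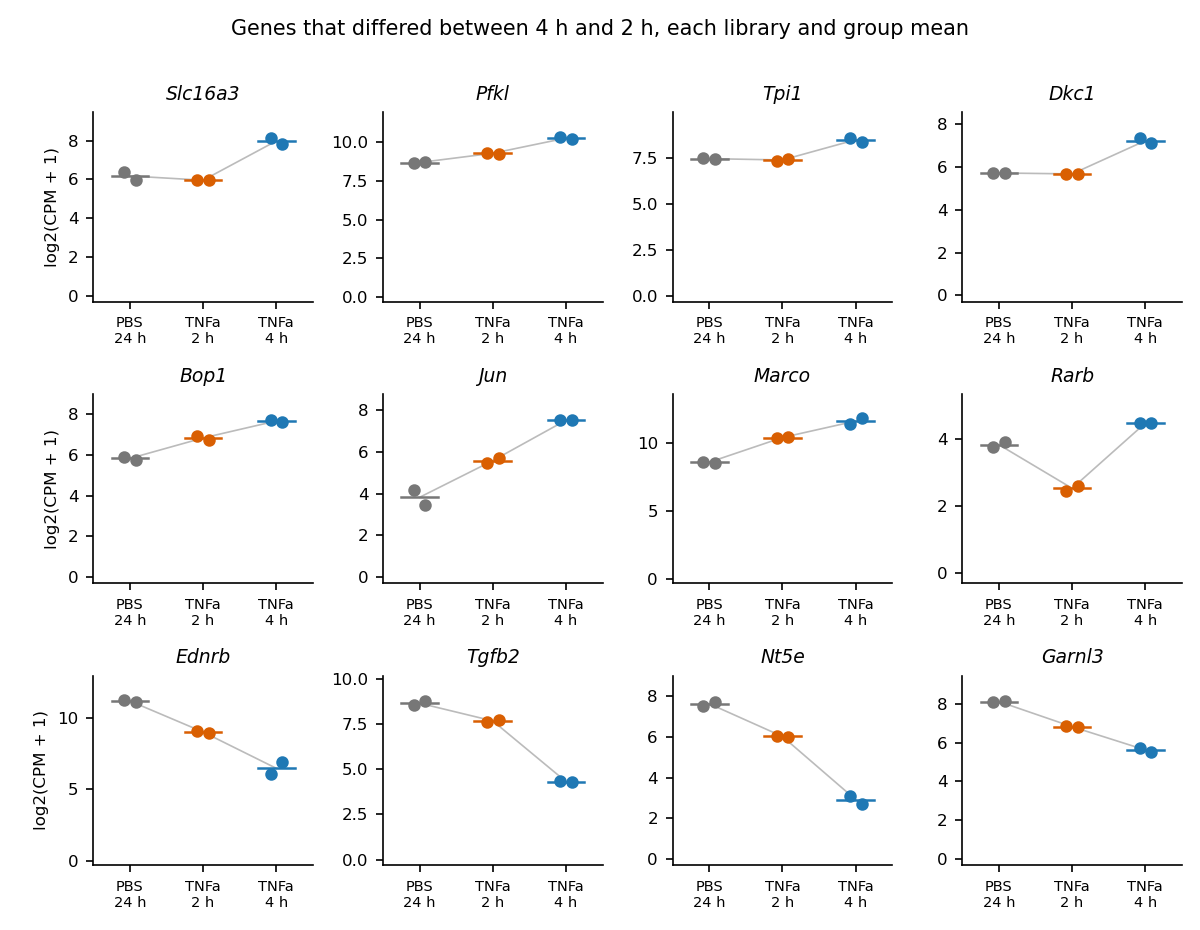
Levels of 12 genes that differed between 4 h and 2 h as log2(CPM + 1) in each library (points) of PBS 24 h, TNFa 2 h and TNFa 4 h, with group means (bars). Slc16a3, Tpi1 and Dkc1 lay near PBS at 2 h and above it at 4 h, and Ednrb, Tgfb2, Nt5e and Garnl3 were lower at 4 h than at 2 h in both libraries.

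Genes that mark resident peritoneal macrophages moved in both directions. Of 29 identity genes, 9 were raised and 6 lowered at 2 h, against 18.1% of all genes in each direction. At 4 h, 7 were raised and 7 lowered, against 18.7% and 16.9%. Between the times 1 rose and 8 fell, against 4.51% and 5%. Ednrb, the endothelin B receptor, measured 2432 and 2249 CPM after PBS, 534 and 500.0 CPM at 2 h and 65.0 and 118 CPM at 4 h. Tgfb2, a growth factor, measured 371 and 437 CPM, 199 and 208 CPM and 19.3 and 18.5 CPM. Nt5e (CD73), which makes adenosine, measured 185 and 214 CPM, 64.5 and 64.1 CPM and 7.63 and 5.61 CPM. Between the times these genes fell (log2 difference -2.50, -3.43 and -3.28) (adjusted p 0.00022, 3.1e-05 and 8.7e-05), and the calls were kept without any 1 of the 6 libraries. Garnl3 fell (log2 difference -1.21), also kept. Gata6, the factor that defines these cells, measured 27.7 and 28.0 CPM after PBS, 15.6 and 11.7 CPM at 2 h and 23.2 and 21.8 CPM at 4 h. It was lowered at 2 h and not called at 4 h. In the screen, against PBS at 2 h, Gata6 was not called (log2 fold change -0.11), with means of 28.9 CPM after PBS and 26.7 CPM after TNFa. Rarb, a retinoic acid receptor, was lowered from 12.6 and 13.9 CPM to 4.50 and 5.07 CPM at 2 h and was above PBS at 4 h, at 21.2 and 21.3 CPM, a rise of 2.15 (SE 0.25) between the times (adjusted p 0.00042). Adgre1 (F4/80) and Icam2, the surface markers of the population, measured 2666 and 2758 CPM and 468 and 423 CPM at 4 h against 3734 and 3909 CPM and 882 and 893 CPM after PBS, and Vsig4 232 and 275 CPM against 545 and 667 CPM. Adgre1 measured 4531 and 4494 CPM at 2 h and fell between the times (log2 difference -0.73), but at 4 h it was not called against PBS (adjusted p 0.0783). Timd4 (TIM-4), the receptor for dead cells, was raised to 1312 and 1382 CPM and 1127 and 1234 CPM from 484 and 568 CPM. Marco, a scavenger receptor, measured 395 and 376 CPM, 1304 and 1417 CPM and 2732 and 3619 CPM, a rise of 1.22 (SE 0.17) between the times (adjusted p 0.00099), while Clec7a (dectin-1) was lowered at 4 h from 127 and 129 CPM to 6.45 and 15.2 CPM. Serpinb2, a plasminogen activator inhibitor that is abundant in these cells, measured 969 and 846 CPM, 12479.9 and 12209.9 CPM and 5050.4 and 5114 CPM. Under scaling by library totals, 7 identity genes were raised and 11 lowered at 2 h, and the list's median there turned from 0.08 to -0.41. Lost without at least 1 library were the call between the times of Adgre1 (highest adjusted p 0.202), the 2 h call of Gata6 (highest adjusted p 0.138) and the 4 h calls of Rarb and Vsig4 (highest adjusted p from 0.0903 to 0.184).

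Several coagulation genes were raised at both times and others were lowered. F3 (tissue factor), which starts coagulation, measured 2.86 and 2.70 CPM after PBS, 15.7 and 22.3 CPM at 2 h and 45.0 and 34.3 CPM at 4 h and rose by 1.06 (SE 0.30) between the times (adjusted p 0.0404). F10 (factor X) measured 474 and 444 CPM, 2666 and 2515 CPM and 2315 and 2247 CPM, and Thbs1 (thrombospondin-1) 5539.7 and 4893 CPM, 40327 and 41373 CPM and 24736 and 22292 CPM. Thbd (thrombomodulin), which opposes coagulation, was at 30.4 and 51.6 CPM after PBS, 31.7 and 37.2 CPM at 2 h and 8.31 and 4.78 CPM at 4 h. It was not called at 2 h (adjusted p 0.654) and was lowered at 4 h (log2 fold change -2.65 (SE 0.47)). Of 14 coagulation and fibrinolysis genes, 7 were raised and 2 lowered at 2 h, against 18.1% of all genes in each direction. At 4 h, 7 were raised and 4 lowered, against 18.7% and 16.9%. The list's median of 0.47 at 2 h turned to -0.03 under scaling by library totals. Among complement genes, C5ar1 measured 306 and 297 CPM, 2275 and 2455 CPM and 1601 and 1347 CPM, C3ar1 was lowered from 559 and 551 CPM to 226 and 234 CPM and 157 and 170.0 CPM, and Cfb was raised (log2 fold change 2.69 and 3.19). The calls between the times of F3, Thbd and C5ar1 (highest adjusted p from 0.0778 to 0.306) were lost without at least 1 library.

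Cell cycle genes were lower after TNFa than after PBS at 24 h: of 21 tested, 17 were lowered and 3 raised at 2 h, and 14 lowered and 3 raised at 4 h, with medians of -2.33 and -1.27. Ccnb2, a mitotic cyclin, measured 38.3 and 28.8 CPM after PBS, 1.12 and 0.882 CPM at 2 h and 6.11 and 21.6 CPM at 4 h, and Cdk1, its kinase, 25.4 and 26.1 CPM, 0.562 and 3.53 CPM and 2.04 and 13.4 CPM. The second 4 h library was above the first in both genes. Mcm5, of the replication helicase, measured 104 and 96.9 CPM, 23.6 and 27.5 CPM and 18.0 and 17.3 CPM. Ccnb2 and Ccna2 rose by 3.75 and 2.94 between the times; the calls were lost without at least 1 library for Ccnb2 (highest adjusted p 0.0668). Of the list, 6 rose, and 1 to 7 with 1 library left out. The screen, with its PBS group at 2 h, had 6 of 21 members lowered, against 26.7% of all genes, and 3 raised, with a median of -0.25. The 3 genes raised at 2 h were Ccnd2, Cdkn1a and Mki67, at 2.73, 2.20 and 1.78, and the cyclin Ccnd1 was lowered (log2 fold change -2.58). Clock genes moved in both directions: of 16, 4 were raised and 5 lowered at 2 h, against 18.1% of all genes in each direction. At 4 h, 4 were raised and 5 lowered, against 18.7% and 16.9%. Nr1d1 (REV-ERBa), a clock repressor, measured 20.1 and 20.4 CPM after PBS, 1.31 and 1.76 CPM at 2 h and 5.77 and 6.43 CPM at 4 h, and Cry1 3.00 and 2.43 CPM, 35.6 and 35.3 CPM and 18.8 and 25.1 CPM. Per1, which also responds to glucocorticoids, measured 15.1 and 40.8 CPM, 99.2 and 116 CPM and 85.3 and 75.5 CPM, and Fkbp5, a glucocorticoid target, 4.57 and 5.13 CPM, 66.4 and 75.8 CPM and 132 and 127 CPM. Of 13 glucocorticoid-responsive genes, 8 were raised and 0 lowered at 2 h, and 7 raised and 1 lowered at 4 h. The raised shares of all genes were 18.1% and 18.7%. In the screen, against PBS at 2 h, 5 of 12 were raised and 2 lowered, against 26.6% and 26.7% of all genes. The list's median was 0.48 there and 1.60 at 2 h in the time course. The hour of day at which each library was taken was not given in the sources used here. Without at least 1 library, the calls between the times of Nr1d1 and Fkbp5 (highest adjusted p from 0.102 to 0.128) and the 4 h calls of Per1, Cdk1, Ccna2 and Mki67 (highest adjusted p from 0.0723 to 0.257) were lost.

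Among the largest changes against PBS were genes outside these lists. Flrt3, an adhesion protein, measured 0.143 and 0.27 CPM after PBS, 221 and 219 CPM at 2 h and 101 and 112 CPM at 4 h, with 3 counts in the PBS libraries, and was 1056-fold (95% counting interval 361 to 5122) higher at 2 h. Mefv (pyrin), an inflammasome sensor, measured 0.286 and 0 CPM, 91.1 and 91.0 CPM and 35.6 and 56.2 CPM, and Saa1, an acute-phase protein, 0 and 0.27 CPM, 74.1 and 94.1 CPM and 76.2 and 63.3 CPM. Adm (adrenomedullin), a vasodilator peptide, was at 0 after PBS and measured 26.6 and 25.1 CPM at 2 h and 4.58 and 3.96 CPM at 4 h. Sphk1, which makes sphingosine-1-phosphate, measured 0.286 and 0 CPM, 75.9 and 82.2 CPM and 62.6 and 54.9 CPM. The membrane genes Ms4a4a and Ms4a4c, neighbours of 1 family that may share reads, measured 15.9 and 11.2 CPM and 21.2 and 18.5 CPM at 2 h and 39.4 and 57.9 CPM and 49.0 and 46.5 CPM at 4 h. Lpar5, a receptor for lysophosphatidic acid, was among the most lowered, from 85.0 and 64.9 CPM to 0.187 and 0.22 CPM at 2 h, with 1.70 and 3.30 CPM at 4 h. With 2 counts at 2 h it was 368-fold (95% counting interval 102 to 3047) lower. Ubash3a, a phosphatase relative, measured 47.3 and 32.4 CPM, 0.375 and 0.22 CPM and 5.77 and 2.97 CPM. Tmem86a, a lysoplasmalogenase relative, measured 25.6 and 25.8 CPM, 0.187 and 0.441 CPM and 11.4 and 10.9 CPM, so that it was 84.6-fold (95% counting interval 28.7 to 412) lower at 2 h and 36.6-fold (95% counting interval 12.3 to 179.7) higher at 4 h than at 2 h. Cd300lb and Engase were lowered (log2 fold change -5.87 (SE 0.26) and -5.16 (SE 0.38)) at 2 h and measured 11.0 and 10.9 CPM and 3.05 and 4.78 CPM at 4 h. Leaving out 1 library ended the calls between the times of Flrt3, Adm, Ms4a4a, Ms4a4c, Lpar5, Ubash3a and Cd300lb (highest adjusted p from 0.0507 to 0.155).

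Some lowered genes were lower at 2 h than at 4 h. Tifab, which inhibits TRAF6 signalling, measured 61.3 and 56.9 CPM after PBS, 3.37 and 3.97 CPM at 2 h and 22.4 and 21.8 CPM at 4 h and rose by 2.59 (SE 0.28) between the times (adjusted p 0.00025). Gna15, a G protein subunit, measured 79.7 and 68.5 CPM, 7.50 and 5.51 CPM and 40.2 and 35.0 CPM, and Pdlim2, which promotes degradation of NF-kB p65, 103 and 104 CPM, 13.9 and 20.9 CPM and 86.4 and 85.6 CPM. Rgs14 and Aldh18a1 rose between the times by 2.47 and 2.34, and Aldh18a1, an enzyme of proline synthesis, ended above PBS. Cd300lf, an inhibitory receptor, was not called at 2 h and rose afterwards, at 8.86 and 3.65 CPM, 6.00 and 3.09 CPM and 29.2 and 29.9 CPM. The reverse, a peak at 2 h that was gone at 4 h, was seen in Mmd at 12.0 and 10.5 CPM, 55.7 and 59.1 CPM and 4.41 and 4.95 CPM. Csrnp1, a nuclear factor, measured 4.29 and 5.13 CPM, 66.9 and 70.3 CPM and 11.2 and 9.07 CPM, and the kinase gene Rps6ka5 3.57 and 10.1 CPM, 27.9 and 29.5 CPM and 3.22 and 2.97 CPM. The calls between the times of Tifab, Gna15, Pdlim2, Rgs14, Aldh18a1, Cd300lf, Mmd, Csrnp1 and Rps6ka5 were kept without any 1 of the 6 libraries, whereas the 4 h calls of Rgs14, Aldh18a1 and Mmd (highest adjusted p from 0.0964 to 0.24) were lost.

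Genes chosen in the screen gave a view of the change from 2 h to 4 h that does not use the time-course libraries for the choice. At 2 h, of the 2194 genes raised at 2 h in the time course and tested in both, 1977 were raised in the screen (90.1%), which is 61.9% of the screen's 3195, against a background of 27.1%. Of 2188 lowered genes, 1737 were lowered in the screen (79.4%), or 54.6% of its 3179, against 27.0%. Opposite calls were made for 3 of the raised and 4 of the lowered genes. Of the 3195 genes raised in the screen, 284 (8.89%) fell from 2 h to 4 h in the time course and 121 (3.79%) rose, against 5% and 4.51% of all genes. Of the 1301 that were raised 2-fold or more, 194 (14.9%) fell and 32 (2.46%) rose, with a median of -0.24 on the log2 scale against 0.02 for all genes. Of the 3179 genes lowered in the screen, 236 (7.42%) rose and 209 (6.57%) fell, with a median of 0.10. Of the other 6002 genes, 201 (3.35%) rose and 126 (2.10%) fell. Scaling by library totals changed the 284 to 181 and the 236 to 428, and leaving out the first or second 2 h library or the first or second 4 h library changed the 284 to 84, 88, 93 or 91 and the 236 to 52, 54, 67 or 76. At 4 h, 1942 of the screen's 3195 raised genes (60.8%) were raised against PBS and 1611 of its 3179 lowered genes (50.7%) lowered.

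**Figure D4:**
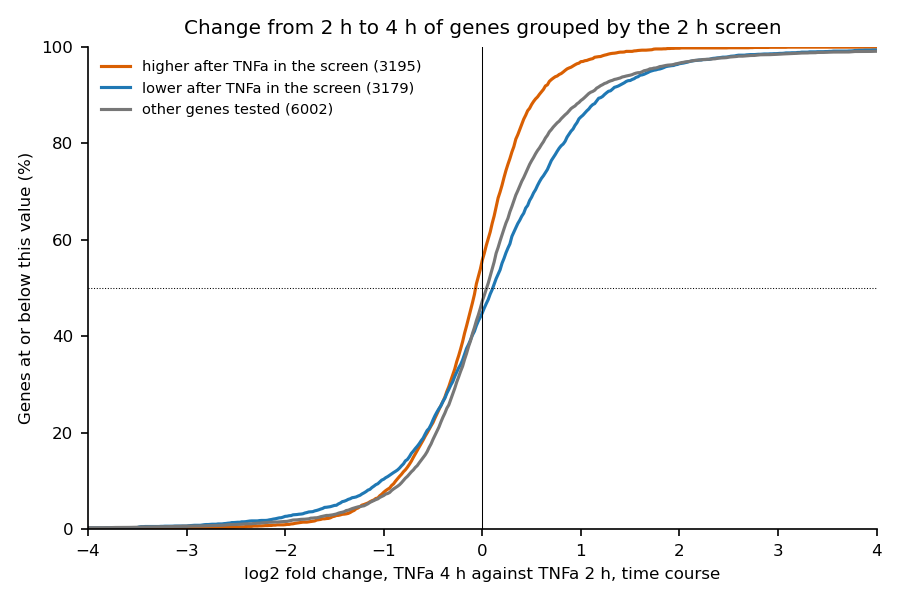
Cumulative share of genes (vertical axis, %) at or below each log2 fold change of TNFa 4 h against TNFa 2 h (horizontal axis), for genes that the independent screen called higher (3195), lower (3179) or neither (6002). The median was -0.07 for the higher, 0.10 for the lower and 0.04 for the other genes.

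The promoters of these groups were searched for the same motifs. The NF-kB motif was in 1.25% of the 32851 promoters of the table, 300 bases each from 250 before to 50 after the start, and in 1.37% of the 11720 of genes tested here. It was in 2.06% of the promoters of genes raised in the screen: in 4.53% for the 284 that then fell (15 of 331 promoters), in 1.61% for the 121 that rose (2 of 124) and in 1.79% for those not called between the times (49 of 2731). Only 234 of these 284 genes and 94 of these 121 had a promoter to search. Promoters of genes lowered in the screen that fell further held it in 0 of 230. The 14 genes with a match among those that fell were Alpk1, Csf1, Extl2, Fbxw11, Gbp5, Icam1, Mapk6, Mitf, Myd88, Nfkb2, Nfkbia, Nlrp3, Tifa and Tnfaip2. The AP-1 motif was in 7.81% of all promoters and 5.21% of those of genes tested here, in 6.65% for the raised genes that fell and in 12.1% for those that rose (15 of 124), and the interferon response motif in 8.56%, 7.25%, 10.6% and 8.06% of the same sets. These shares are descriptions, with no test, and some genes have several promoters in the table.

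The 2 h response was compared directly between the time course and the screen, which were normalized together in 1 fit, and 113 of 13079 genes (0.864%) differed, 42 of them higher and 71 lower in the time course. Fkbp5, the glucocorticoid target, was one of them. It measured 4.57 and 5.13 CPM after PBS at 24 h and 66.4 and 75.8 CPM at 2 h after TNFa, whereas in the screen the 5 PBS libraries ranged from 82.1 to 126 CPM around a median of 102 CPM and the 3 TNFa libraries from 118 to 156 CPM around 123 CPM. These levels were normalized separately for each experiment. The response of Fkbp5 was 3.87 on the log2 scale in the time course and 0.33 in the screen. Map3k6, a stress kinase gene, measured 1.57 and 3.11 CPM in the PBS libraries of the time course and 21.9 to 25.4 CPM in those of the screen, with 63.6 and 73.4 CPM and 60.2 to 67.5 CPM after TNFa. Rapgef2, a GTPase regulator, differed instead in the TNFa libraries, at 141 and 112.6 CPM against 28.2 to 39.7 CPM. Nr1d1 measured 20.1 and 20.4 CPM after PBS in the time course and 59.4 to 89.0 CPM in the screen, and 1.31 and 1.76 CPM against 32.5 to 49.9 CPM after TNFa. Among the lists, 6 of 21 cell cycle genes were lower in the time course, with a median difference of -1.64 against -0.02 for all genes, and 2 of 13 glucocorticoid-responsive genes were higher. Ccnb2 measured 1.12 and 0.882 CPM at 2 h in the time course and 32.7 to 73.9 CPM in the screen. The hour of the PBS control and the experiment differ together and cannot be told apart, whereas the TNFa libraries of both experiments were taken at 2 h. The count fell to 11 or 39 without the first or second PBS library of the time course, to 6 or 22 without the first or second 2 h library, and to 69 to 74 without 1 TNFa library of the screen. The calls of Fkbp5, Map3k6, Rapgef2, Ncoa1 and Ccna2 were kept without any 1 of the 12 libraries.

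**Figure D5:**
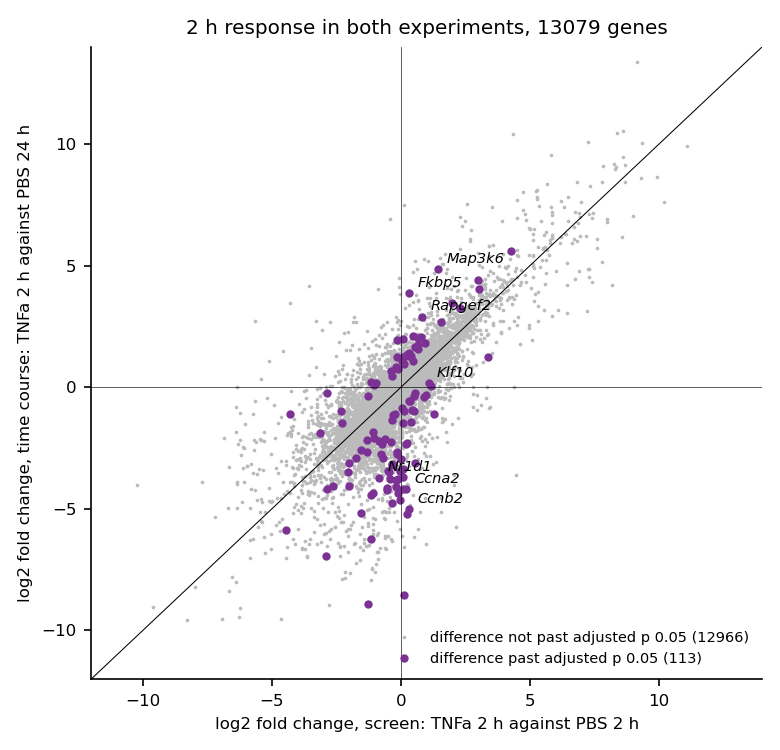
Log2 fold change at 2 h after TNFa in the time course (vertical axis, against PBS at 24 h) and in the screen (horizontal axis, against PBS at 2 h) for 13079 genes, with the 113 that differed in purple and the line of equality. Fkbp5 and Map3k6 lie above the line, and Ccnb2, Ccna2 and Nr1d1 below it.

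The change from 2 h to 4 h was also compared with that of spleen Ly6C monocytes of the same time course, which uses the same macrophage libraries, where 253 of 13914 genes (1.82%) differed, 105 with a more positive and 148 with a more negative change in macrophages. Levels here are CPM from that joint fit. Glipr2 rose in macrophages, from 34.9 and 27.2 CPM to 98.3 and 91.9 CPM, and in monocytes measured 112 and 149 CPM at 2 h and 30.1 and 39.6 CPM at 4 h. Tgfbr1, a receptor for TGFb, went from 57.9 and 69.4 CPM to 35.0 and 44.9 CPM in macrophages and from 31.0 and 26.0 CPM to 180 and 191 CPM in monocytes. St7 and Rasa3 fell in macrophages, to 19.1 and 25.5 CPM and to 15.6 and 27.5 CPM, while in monocytes St7 measured 87.5 and 119 CPM at 2 h and 244 and 224 CPM at 4 h, and Rasa3 42.6 and 40.9 CPM and 91.0 and 87.2 CPM. Cyld fell in macrophages and measured 71.6 and 57.2 CPM at 2 h and 78.7 and 77.5 CPM at 4 h in monocytes. Camp, a neutrophil granule gene, was at most 2.18 CPM in macrophages at either time and measured 144 and 138 CPM at 2 h and 0.391 and 0 CPM at 4 h in monocytes. The neutrophil genes S100a9 and Retnlg were high in the same monocyte libraries, and went from 195 and 232 CPM to 9.76 and 5.08 CPM and from 22.3 and 6.82 CPM to 0, and their part in the monocyte values was not tested. Leaving out 1 library changed the count to 50 or 71 without the first or second macrophage 2 h library and to 93 or 80 without the first or second at 4 h. Without a monocyte library it was 134 or 1009 (2 h, first or second) and 88 or 166 (4 h). The calls of Glipr2, Tgfbr1, St7, Rasa3, Fchsd2, Slfn1, Serpinb10, Slc2a6 and Camp were kept in all 8 of these, and that of Cyld in none.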

How the data were processed

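Members and gene lists were chosen with earlier results of these data known. The deposited values are raw read counts per gene. Per the submitters' processing notes, the authors used STAR 2.7.3a, featureCounts and the mm10 build, and how strand and reads with several matches were handled was not stated there. Near-identical copies (Bcl2a1a, Bcl2a1b and Bcl2a1d, Mt1 and Mt2, Cxcl and Gbp genes, Ms4a4a and Ms4a4c) and overlapping genes are therefore uncertain.

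The counts were fitted in edgeR 4.0.16 (R 4.3.3) with TMM factors, filterByExpr and the quasi-likelihood test, over the 10 macrophage libraries of the TNFa time course, with Benjamini-Hochberg adjustment over 12376 genes. The screen was fitted separately, over its 14 macrophage libraries (5 of PBS and 3 each of IL1b, IL6 and TNFa), so levels set across the experiments come from separate normalizations. Interaction terms compared the 2 h response with the screen (24 libraries, 13079 genes) and the change from 2 h to 4 h with monocytes (20 libraries, 13914 genes). DESeq2 1.42.0, other scalings and filters, a replicate block and fits without single libraries were alternatives. The scripts were tested on simulated data. The labels do not say whether the replicate numbers pair libraries. Deviations of libraries with the same number had correlations of -0.0319 to 0.0916, which cannot exclude pairing. Intervals and floors cover counting error only, at 95% confidence, with a floor of 3 counts.

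Genes were named by a rule: in each comparison, the 10 raised and 8 lowered genes with the largest fold among those called, with groups that do not overlap and a mean of 20 CPM or more in the group where the gene was higher, and the 3 members of each list with the smallest adjusted p, plus Tnf, its receptors, clock genes that were called and, for each interaction, the 5 genes with the smallest adjusted p in each direction. Other named genes were chosen after their values were seen. Gene positions are from GENCODE vM21 and promoters from RefSeq (GRCm38.p6). Some items are not reported here.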

Additional observations from a re-analysis of the deposited data

Results flagged for a closer look

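Differences between responses were taken from a test of the difference itself, edgeR's quasi-likelihood interaction term with Benjamini-Hochberg adjustment, and each difference given here had an adjusted p under 0.05. Values are log2 fold changes, and the 2 values in parentheses are the responses that were subtracted.

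The 2 h response of the time course (against PBS at 24 h) minus that of the independent 2 h screen (against PBS at 2 h) was positive for genes that rose more, or fell less, in the time course. It was 3.54 for Fkbp5 (3.87 against 0.33), 3.40 for Map3k6 (4.86 against 1.45), 2.08 for Rapgef2 (2.91 against 0.83), 1.40 for Ncoa1 (0.23 against -1.17) and 1.04 for Dapk1 (0.65 against -0.39). The same difference was 1.07 for Rel (1.75 against 0.68), 1.34 for Tgfb2 (-0.98 against -2.32) and 2.61 for Thbd (-0.25 against -2.86). Negative differences were found for cyclins and other genes of dividing cells: -5.34 for Ccnb2 (-5.02 against 0.33), -4.39 for Ccna2 (-4.19 against 0.20), -3.78 for Cdk1 (-3.71 against 0.08) and -3.41 for Ccnf (-3.44 against -0.03). Among signalling genes they were -2.89 for Nr1d1 (-3.71 against -0.83), -0.90 for Klf10 (0.18 against 1.07), -1.45 for Dusp6 (-4.06 against -2.61) and -1.45 for Gna15 (-3.49 against -2.04). For the other genes they were -4.05 for Ubash3a (-6.94 against -2.90), -1.42 for Cd300lb (-5.86 against -4.44), -1.03 for Pdlim2 (-2.57 against -1.54), -1.56 for Aldh18a1 (-1.47 against 0.09) and -2.52 for Sqle (-2.28 against 0.24). Of the 12 fits that each left out 1 library, Fkbp5, Map3k6, Rapgef2, Ncoa1 and Ccna2 were called in all. Ccnb2, Ccnf, Dapk1 and Nr1d1 were called in 11, each lost without the first time course library at 2 h. Klf10 was called in 10, Cdk1, Gna15, Tgfb2 and Thbd in 9, Pdlim2 in 8, Ubash3a in 7, Rel, Dusp6 and Aldh18a1 in 6, Cd300lb in 4 and Sqle in 0. The time of the PBS injection and the experiment cannot be told apart as a source of these differences. The TNFa libraries of both experiments were taken at 2 h.

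The change from 2 h to 4 h in peritoneal macrophages minus that in monocytes was positive for several genes: 10.44 for Camp (1.14 against -9.30), 4.06 for Ccnb2 (3.73 against -0.33), 3.93 for Mt2 (-0.56 against -4.49), 3.58 for Il15 (-0.51 against -4.09), 3.52 for Glipr2 (1.61 against -1.91) and 3.22 for Ptgs1 (-0.39 against -3.61). Further positive differences were 2.86 for Slfn1 (1.27 against -1.59), 2.79 for Cd300lf (2.65 against -0.14), 2.68 for Sphk1 (-0.45 against -3.13), 2.12 for Serpinb10 (-0.40 against -2.52), 1.92 for Slc2a6 (-0.30 against -2.23), 1.90 for Flrt3 (-1.07 against -2.97), 1.90 for Ms4a4a (1.81 against -0.10) and 1.47 for Ms4a4c (1.24 against -0.23). Negative differences were -8.53 for Tgfb2 (-3.45 against 5.08), -3.51 for Fchsd2 (-2.36 against 1.15), -3.37 for Tgfbr1 (-0.67 against 2.70), -3.12 for St7 (-1.94 against 1.18), -2.84 for Mmd (-3.63 against -0.79) and -2.73 for Rasa3 (-1.64 against 1.09). Further negative differences were -2.51 for Hk2 (-1.03 against 1.49), -2.30 for Ednrb (-2.52 against -0.22), -2.03 for Vsir (-0.53 against 1.49), -2.001 for Tlr8 (-2.41 against -0.41), -1.45 for Klf10 (-0.69 against 0.76) and -1.22 for Cyld (-0.94 against 0.28). Of the 8 fits that each left out 1 library, Camp, Fchsd2, Glipr2, Rasa3, Serpinb10, Slc2a6, Slfn1, St7 and Tgfbr1 were called in all. Il15, lost without the first macrophage library at 2 h, and Tgfb2, lost without the first monocyte library at 4 h, were called in 7. Ms4a4a, Mt2, Sphk1 and Vsir were called in 6, Ccnb2 and Ptgs1 in 4, and Hk2 and Klf10 in 2. Cd300lf, Flrt3, Mmd, Ms4a4c and Tlr8 were called in 1, the fit without the second monocyte library at 2 h, and Cyld and Ednrb in 0. Camp, a neutrophil granule gene, measured 0.816 and 0.954 CPM at 2 h and 2.18 and 1.76 CPM at 4 h in macrophages, and 144 and 138 CPM at 2 h and 0.391 and 0 CPM at 4 h in monocytes. The neutrophil gene S100a8 was at 269.7 and 357 CPM at 2 h and 85.3 and 73.9 CPM at 4 h in the same monocyte libraries, and its part in these differences was not tested. Tgfb2 was at 0 in both monocyte libraries at 2 h, so its fitted difference depends on the prior count. In monocytes at 4 h, Ptgs1 was at 0.781 and 0 CPM, Il15 at 0.781 and 0.212 CPM and Mt2 at 0.391 and 1.27 CPM. Their differences therefore rest on few counts there.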

How the results depend on the processing

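No gene followed individually changed direction under an alternative while called, but scaling by library totals turned the balance of calls and the sign of several list medians, as given with those results. Fitting only the 6 libraries gave 3222 genes between 4 h and 2 h. Scaling by library totals gave 181 genes raised in the screen that fell and 428 lowered in the screen that rose, and choosing only 2-fold changes in the screen gave 149 of the latter. The 2 h response differed from the screen for 306 genes with DESeq2 and 369 without a filter on low counts, and the later change differed from monocytes for 641 and 564. The cause of these changes was not tested, apart from the smaller number of genes chosen at 2-fold. Without 1 library each, assuming that a lone library varies like the others, counts ranged from 2704 to 4167 at 2 h, 2451 to 4028 at 4 h, 278 to 911 between the times, and 5674 to 6326 in the screen. They ranged from 84 to 93 for screen-raised genes that fell, 52 to 76 for screen-lowered genes that rose, 6 to 150 against the screen and 50 to 1009 against monocytes. With the replicate number as a block, 4436, 4359 and 1159 genes were called at 2 h, at 4 h and between the times. The labels do not say whether the numbers pair the libraries. DESeq2 called 4328, 4230 and 1456. Of the called genes that were followed individually, 163 of 185 at 2 h, 151 of 183 at 4 h and 36 of 112 between the times were called without any 1 library. With 2 libraries a group and no PBS group at 2 h or 4 h, small differences between the times may not be detectable.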
